A study of Mus musculus with 9 samples.

Results

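The Toll-like receptor genes were examined in dendritic cells (DCs) grown from mouse bone marrow. The 10 members, *Tlr1*, *Tlr2*, *Tlr3*, *Tlr4*, *Tlr5*, *Tlr6*, *Tlr7*, *Tlr8*, *Tlr9* and *Tlr13*, were taken by their symbols from the 55471 genes of the deposited counts, and each symbol matched a single gene. DCs were left unstimulated, activated with lipopolysaccharide (LPS, a component of the outer membrane of Gram-negative bacteria) at 100 ng/mL, or treated with interferon-β (IFN-β, a type I interferon) at 1000 U/mL. All DCs were harvested after 6 h. Every library came from WT cells, and the study's methods describe female C57BL/6 mice aged 8 to 20 weeks. The bone marrow was cultured with GM-CSF, a growth factor that drives DC and macrophage outgrowth, and no sorting of the cultures before RNA extraction is described in the sources used here. There were 9 libraries, 3 per condition, and within a condition they carry the letters A, B or C. Nothing in the sources used here says whether a letter stands for a mouse or a culture, and the p-values measure the spread between these libraries.

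Toll-like receptors are membrane proteins that bind conserved molecules of microbes through leucine-rich repeats and signal through a cytoplasmic TIR domain. TLR2, with TLR1 or TLR6 as its partner, binds bacterial lipoproteins at the cell surface, where TLR4 with its co-receptor MD-2 binds LPS and TLR5 binds flagellin. TLR3, TLR7, TLR8, TLR9 and, in mice, TLR13 are nucleic acid receptors of the endosome: TLR3 binds double-stranded RNA, TLR7 and TLR8 RNA degradation products, TLR9 unmethylated CpG DNA, and TLR13 a stretch of bacterial ribosomal RNA. The receptors signal through the adaptors MyD88 and TRIF to NF-κB and interferon regulatory factors.

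The libraries held 33425803 to 43735199 counts on genes, and levels are given as CPM, counts per 1000000 counts of a library after scaling with TMM factors. On this scale 3 counts correspond to 0.0674 to 0.106 CPM. *Il12b*, a cytokine subunit gene, rose from 3.41 CPM ± 0.696 to 3615 CPM ± 187 (mean ± SD, n = 3) under LPS and was at 4.28 CPM ± 0.769 under IFN-β. Not all cytokine genes checked were flat under IFN-β. By edgeR's quasi-likelihood test *Tnf* rose from 88.4 to 185 CPM (adjusted p = 0.00041) and *Il6* from 1.39 to 4.96 CPM (adjusted p = 0.0013). The change of *Il1b*, from 48.0 to 65.5 CPM, did not pass (adjusted p = 0.26). *Isg15*, an interferon-stimulated gene, rose from 22.2 CPM ± 13.5 to 904 CPM ± 118 under LPS and 421 CPM ± 26.4 under IFN-β. The 8 DC markers, *Itgax* among them, summed to 5303 to 6417 CPM in unstimulated libraries, to 6940 to 7817 CPM after LPS and to 5880 to 6216 CPM after IFN-β. The 6 macrophage markers, *Adgre1* among them, summed to 1785 to 2185, 1769 to 2256 and 2327 to 2591 CPM in the same order. Markers of other cells were low: the neutrophil list summed to 9.61 to 25.6 CPM over all 9 libraries with *Elane* at no more than 3 counts, the plasmacytoid DC list to 2.71 to 6.93 CPM with *Siglech* and *Klk1* at no more than 3 counts, and the 5 B cell markers to 0.159 to 0.531 CPM. The conventional DC1 list, with *Xcr1*, summed to 32.5 to 42.2 CPM in unstimulated libraries, 18.2 to 21.5 CPM with LPS and 48.6 to 52.3 CPM with IFN-β. Its members went both ways with LPS, as *Clec9a* fell from 13.1 to 3.92 CPM and *Batf3* from 22.4 to 14.0 CPM (adjusted p = 3.4e-05 and 0.0063), while *Xcr1* rose from 0.0703 to 0.734 CPM (adjusted p = 0.0014). In these bulk RNA samples, fewer cells of a type and less RNA per cell cannot be told apart.

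The promoters of the receptors are described first, since the transcription factors known to act downstream of LPS and IFN-β bind short DNA elements. Whether such elements bear on the changes in level was not tested. Of the 10 receptor genes, 8 had a promoter in the RefSeq table used here (GRCm38.p6, 250 bases before and 50 bases after each start, 10 promoters for these 8 genes), and *Tlr4* and *Tlr7* had none. Both strands were searched for 4 elements. The letters AANNGAAA, a binding element of interferon regulatory factors, were in 23.9% of the 32851 promoters. They were in 4 of the 10 receptor promoters (*Tlr1*, *Tlr2*, *Tlr3* and *Tlr6*). The NF-κB consensus was in 4.51% of promoters and in 2 of the 10 (*Tlr2* and *Tlr3*). TTCNNNGAA, the form bound by STAT factors, was in 8.3% of promoters and in 3 of the 10 (*Tlr1*, *Tlr6* and *Tlr8*). GAGGAAGT, the form bound by PU.1, a myeloid ETS factor, was in 3.2% of promoters and in 2 of the 10 (*Tlr1* and *Tlr9*). *Tlr1* and *Tlr6* each had more than 1 promoter, and no element was in every promoter of either gene. A match describes the letters and is not evidence of binding.

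Stretches of these windows that lie in no exon of the gene are given for *Tlr2*, the most abundant receptor, *Tlr3*, which rose the most, *Tlr6*, for which only the stretch with 4 matches is shown, and *Tlr9*, whose rise was larger with IFN-β than with LPS. They are written 5′ to 3′ on the gene's strand, with matches to any of the 4 elements in capitals: chr3:83841768-83841858 (minus strand) for *Tlr2*, chr8:45410381-45410452 (minus) for *Tlr3*, chr5:64959167-64959416 (minus) for *Tlr6* and chr9:106222348-106222597 (plus) for *Tlr9*.
Tlr2: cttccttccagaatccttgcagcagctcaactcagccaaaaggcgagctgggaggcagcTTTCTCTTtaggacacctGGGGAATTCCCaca
Tlr3: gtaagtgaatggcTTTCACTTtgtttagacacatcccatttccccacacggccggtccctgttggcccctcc
Tlr6: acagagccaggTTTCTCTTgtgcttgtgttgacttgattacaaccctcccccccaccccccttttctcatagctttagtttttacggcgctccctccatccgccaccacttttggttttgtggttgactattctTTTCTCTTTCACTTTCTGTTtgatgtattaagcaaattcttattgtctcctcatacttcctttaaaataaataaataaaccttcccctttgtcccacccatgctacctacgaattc
Tlr9: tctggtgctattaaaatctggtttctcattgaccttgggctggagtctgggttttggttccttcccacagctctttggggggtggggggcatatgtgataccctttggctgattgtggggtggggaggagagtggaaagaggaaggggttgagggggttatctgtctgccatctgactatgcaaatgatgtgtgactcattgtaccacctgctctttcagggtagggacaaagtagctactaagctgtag
In the *Tlr2* stretch the first capitals match the interferon regulatory factor element on the other strand and the second are 2 overlapping matches to the NF-κB consensus. The single match in the *Tlr3* stretch, on the other strand, is again the interferon regulatory factor element. This *Tlr3* stretch lies within the annotated gene between its exons. The *Tlr6* stretch shown, which also lies within the annotated gene between its exons, holds 4 matches to the interferon regulatory factor element, 3 of them overlapping. Another *Tlr6* stretch, just before the annotated gene (chr5:64960098-64960298), holds none of the 4 elements and is not printed. The *Tlr9* stretch holds none of the 4 elements, and its single match in the window (PU.1) lies in the first exon.

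*Tlr1* (chr5:64924679-64933563) and *Tlr6* (chr5:64952031-64960097) are neighbours on chromosome 5, both on the minus strand, and share the longest run of sequence among the receptors. In the GENCODE M21 transcripts, 8.85% of the 100-base windows of the longest *Tlr1* transcript, the read length used by the authors, occurred unchanged in *Tlr6*, and 7.24% of those of *Tlr6* occurred in *Tlr1*. The remaining members had no such window in another gene except *Tlr3*, with 0.418% in *Gm45542*, a gene on the other strand that had 0 to 10 counts in a library. The longest run shared by both genes is 229 bases of coding sequence, at chr5:64925537-64925765 in *Tlr1* and chr5:64953828-64954056 in *Tlr6* (GRCm38, minus strand). This run holds only part of the 259 shared windows, and the rest of the shared sequence is not printed. The longest run is printed because a read wholly within it can be placed only through its mate. How many read pairs the shared sequence touched was not tested.
Tlr1 and Tlr6: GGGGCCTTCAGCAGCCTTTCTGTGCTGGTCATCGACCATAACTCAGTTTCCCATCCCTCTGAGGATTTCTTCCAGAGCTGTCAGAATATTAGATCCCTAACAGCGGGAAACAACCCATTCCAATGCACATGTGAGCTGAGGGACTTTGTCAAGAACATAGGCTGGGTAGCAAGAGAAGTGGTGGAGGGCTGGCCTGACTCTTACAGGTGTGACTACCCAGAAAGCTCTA

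After LPS, 7 of the 10 receptor genes were higher and 2 were lower than in unstimulated DCs by edgeR's quasi-likelihood test at an adjusted p-value under 0.05, against a background of 32.8% of the 16260 tested genes higher, 35.4% lower and 68.2% in either direction. After IFN-β, 9 of the 10 were higher and none was lower, against a background of 23.6% higher, 23.3% lower and 46.9% in either direction. The receptor without a call after IFN-β was *Tlr5*, which had 10 to 25 counts per library in this group. The median log2 fold change of the 10 genes was 1.34 with LPS and 0.99 with IFN-β, beside -0.04 and -0.02 for all tested genes. *Tlr1*, *Tlr2*, *Tlr3*, *Tlr6*, *Tlr7*, *Tlr8* and *Tlr9* were higher under both stimuli, as were 19.7% of all tested genes. *Tlr4* was lower with LPS and higher with IFN-β, and 1.76% of all tested genes (286) were called in opposite directions. Both comparisons use the same unstimulated libraries.

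**Figure D1:**
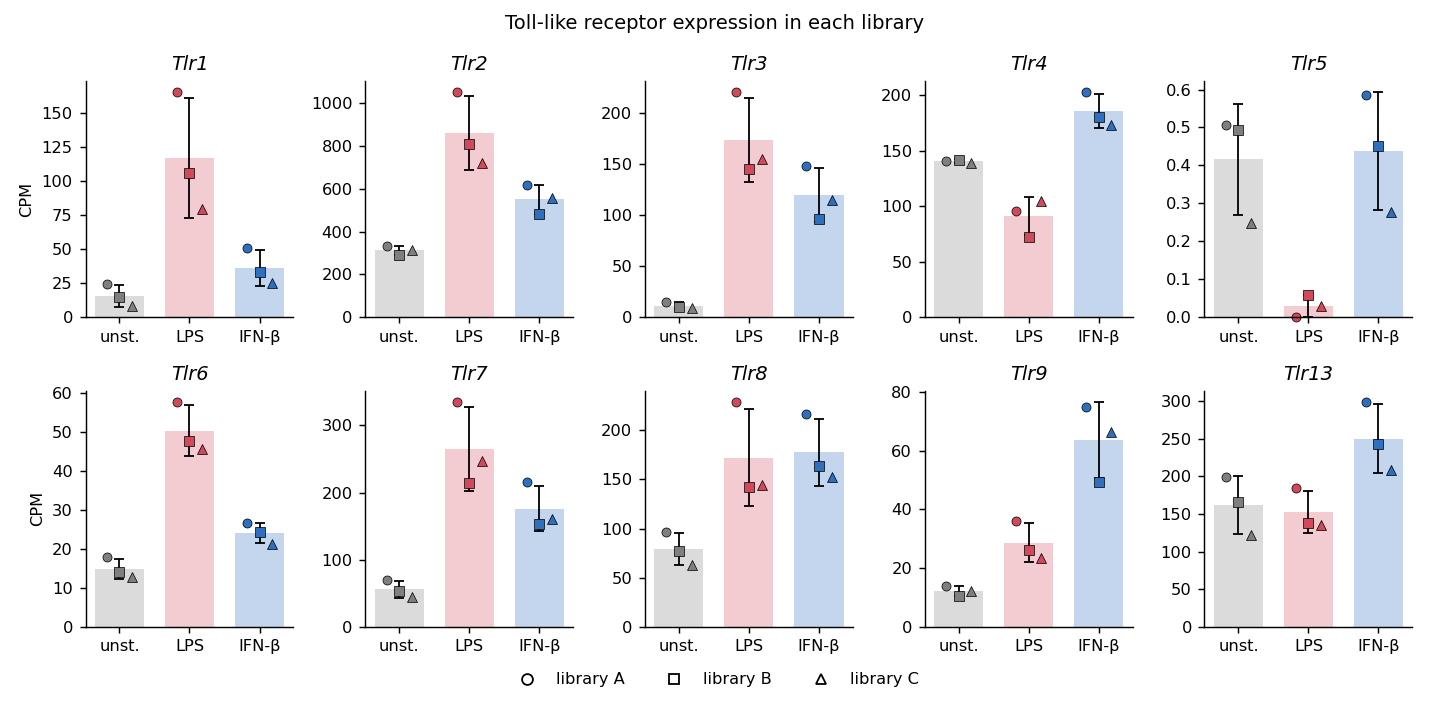
Level of each of the 10 Toll-like receptor genes in CPM (linear axes from 0) in unstimulated (unst.), LPS-activated and IFN-β-treated DCs. Bars are means and error bars SD of 3 libraries, and circles, squares and triangles are libraries A, B and C; *Tlr3* rose from 8.73 to 15.0 CPM to 145 to 221 CPM with LPS, and all *Tlr4* libraries lay below the unstimulated ones with LPS and above them with IFN-β.

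*Tlr2*, the shared partner of the lipoprotein receptors (chr3:83836272-83841767, minus strand), had the highest level of the family in every library. It was at 334, 289 and 315 CPM in unstimulated libraries A, B and C, at 1052, 811 and 721 CPM with LPS, and at 617, 483 and 557 CPM with IFN-β. No library of a stimulated group overlapped the unstimulated group, and every LPS library was above every IFN-β library. The log2 fold change was 1.46 ± 0.14 (SE, adjusted p = 4.8e-06) with LPS and 0.82 ± 0.14 (adjusted p = 0.00079) with IFN-β, or 2.75-fold and 1.77-fold. The difference between the stimuli was 1.56-fold in favour of LPS (log2 -0.64 for IFN-β against LPS, adjusted p = 0.0031).

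*Tlr1*, which encodes the partner of TLR2 for triacylated lipoproteins, was at 24.5, 14.9 and 8.42 CPM in unstimulated DCs, 165, 106 and 79.8 CPM with LPS, and 50.6, 33.0 and 25.0 CPM with IFN-β. Library A was the highest and library C the lowest in each group, and the 3 groups did not overlap. *Tlr1* rose 7.36-fold with LPS (log2 2.88 ± 0.40, adjusted p = 8.1e-05). The rise with IFN-β was 2.28-fold (log2 1.19 ± 0.39, adjusted p = 0.028), and it no longer passed the threshold without IFN-β library A (log2 0.86, adjusted p = 0.11), without unstimulated library B (1.14, adjusted p = 0.080) or without unstimulated library C (0.88, adjusted p = 0.073). Compared within letters, the IFN-β library was 1.03 to 1.52 log2 units above its unstimulated counterpart. With the letter as a block this rise passed (log2 1.23, adjusted p = 4.4e-08).

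*Tlr6*, which encodes the partner of TLR2 for diacylated lipoproteins, was at 17.8, 14.0 and 12.9 CPM without stimulation, 57.6, 47.6 and 45.7 CPM with LPS and 26.6, 24.2 and 21.3 CPM with IFN-β. These groups did not overlap either. The increase was 3.38-fold with LPS (log2 1.76 ± 0.14, adjusted p = 9.3e-07) and 1.61-fold with IFN-β (log2 0.69 ± 0.14, adjusted p = 0.0019). With IFN-β, *Tlr6* was 2.09-fold lower and *Tlr1* 3.23-fold lower than with LPS (adjusted p = 8.2e-05 and 0.0040). The ratio of *Tlr1* to *Tlr6* per kilobase within a library, which does not depend on the scaling, was 0.728 to 1.53 in unstimulated DCs, 1.95 to 3.20 with LPS and 1.31 to 2.12 with IFN-β, so that LPS libraries lay above the unstimulated ones and the range of the IFN-β libraries overlapped both groups. Within each letter the ratio was lowest without stimulation and highest with LPS (1.53, 2.12 and 3.20 in A, 1.19, 1.52 and 2.48 in B, and 0.728, 1.31 and 1.95 in C for unstimulated, IFN-β and LPS).

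*Tlr4*, the receptor for the LPS used here (chr4:66827584-66930284, plus strand), was at 141, 142 and 138 CPM in unstimulated DCs. It was at 95.9, 71.8 and 105 CPM with LPS and at 203, 180 and 173 CPM with IFN-β. All LPS libraries were below and all IFN-β libraries above the unstimulated group. The decrease with LPS was 1.54-fold (log2 -0.63 ± 0.12, adjusted p = 0.00083), and the increase with IFN-β was 1.32-fold (log2 0.40 ± 0.12, adjusted p = 0.019). The increase with IFN-β depended on the scaling: with library size in place of TMM factors it was 0.09 on the log2 scale (adjusted p = 0.51), and it also missed the threshold without IFN-β library A (0.33, adjusted p = 0.075) or unstimulated library B (0.40, adjusted p = 0.051), and without the A libraries of all groups (0.33, adjusted p = 0.11). With the letter as a block the increase with IFN-β passed (log2 0.40, adjusted p = 0.0026). The decrease with LPS passed the threshold under every alternative tried, with log2 values from -1.21 to -0.48. The direct comparison placed *Tlr4* 2.04-fold higher with IFN-β than with LPS (log2 1.03 ± 0.12, adjusted p = 5.1e-05). Per kilobase, the ratio of *Tlr4* to *Tlr2* was 0.229 to 0.266 in unstimulated DCs, 0.0480 to 0.0790 with LPS and 0.169 to 0.202 with IFN-β, with no overlap between the groups.

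*Tlr5*, the flagellin receptor gene, was close to the limit of detection, with 20, 22 and 11 counts in the unstimulated libraries, 0, 2 and 1 counts with LPS, and 25, 17 and 10 counts with IFN-β. The LPS libraries were at 0 to 0.0583 CPM and the unstimulated libraries at 0.248 to 0.507 CPM, without overlap, and the decrease passed the test (adjusted p = 0.00065). Because LPS-activated DCs had 3 counts in all, the size is given from the summed counts: *Tlr5* was 13.1-fold lower than in unstimulated DCs, with a 95% exact interval of 4.25 to 65.5 that covers counting error only. With IFN-β the ratio from the summed counts was 1.08 (95% exact interval of 0.722 to 1.61, counting error only). No change passed edgeR's test (log2 0.09 ± 0.39, SE, adjusted p = 0.87). Since the interval leaves out the spread between libraries, it is not a limit of detection.

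*Tlr3*, the endosomal receptor of double-stranded RNA (chr8:45395665-45411080, minus strand), had the largest rise of the family under each stimulus. It was at 15.0, 10.2 and 8.73 CPM in unstimulated DCs, 221, 145 and 155 CPM with LPS, and 148, 96.0 and 115 CPM with IFN-β. Every stimulated library was above every unstimulated one. The rise was 15.4-fold with LPS (log2 3.94 ± 0.25, adjusted p = 1.8e-07) and 10.6-fold with IFN-β (log2 3.41 ± 0.24, adjusted p = 3.3e-06). The groups treated with LPS and IFN-β overlapped, and their difference did not pass the threshold (log2 -0.54 ± 0.22, adjusted p = 0.063). Compared within letters, every IFN-β library was below its LPS counterpart (log2 differences of -0.59 to -0.44), and with the letter as a block the difference passed (log2 -0.53, adjusted p = 2.1e-05).

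*Tlr7* and *Tlr8*, the receptors of RNA degradation products, are neighbours on the X chromosome (chrX:167304929-167330558 and chrX:167242696-167264329, both minus strand). *Tlr7* was at 69.1, 54.1 and 44.5 CPM in unstimulated DCs, 335, 214 and 247 CPM with LPS, and 215, 153 and 160 CPM with IFN-β. *Tlr8* was at 96.3, 77.5 and 63.4 CPM, 229, 143 and 144 CPM, and 216, 164 and 152 CPM in the same order. For both genes every stimulated library was above every unstimulated one, while the LPS and IFN-β groups overlapped. *Tlr7* rose 4.75-fold with LPS (log2 2.25 ± 0.21, adjusted p = 3.3e-06) and 3.15-fold with IFN-β (log2 1.66 ± 0.20, adjusted p = 9.9e-05). *Tlr8* rose 2.17-fold with LPS (log2 1.12 ± 0.21, adjusted p = 0.00074) and 2.24-fold with IFN-β (log2 1.17 ± 0.21, adjusted p = 0.0012).

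Between the stimuli, *Tlr7* was lower with IFN-β than with LPS (log2 -0.59 ± 0.20, adjusted p = 0.030), a call that was lost with scaling by library size (-0.31, adjusted p = 0.14), without LPS library A (-0.40, adjusted p = 0.11), without IFN-β library B (-0.50, adjusted p = 0.11) and without IFN-β library C (-0.53, adjusted p = 0.093). Compared within letters, *Tlr7* was lower in every IFN-β library than in its LPS counterpart (log2 differences of -0.64 to -0.49). With the letter as a block this difference passed (log2 -0.59, adjusted p = 1.7e-05). *Tlr8* showed no difference past the threshold (log2 0.05 ± 0.21, adjusted p = 0.87). The ratio of *Tlr7* to *Tlr8* per kilobase within a library was 0.613 to 0.631 in unstimulated DCs, 0.819 to 0.926 with IFN-β and 1.29 to 1.505 with LPS. The ratio was nearly the same in the 3 unstimulated libraries and the groups did not overlap, which does not depend on the gene lengths used, whereas on which side of 1 a ratio lies does.

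*Tlr9*, the CpG DNA receptor (chr9:106222598-106226883, plus strand), was at 14.1, 10.7 and 12.3 CPM in unstimulated DCs, 36.2, 26.3 and 23.6 CPM with LPS, and 75.0, 49.5 and 66.3 CPM with IFN-β. The 3 groups did not overlap, and IFN-β libraries were the highest. *Tlr9* rose 2.33-fold with LPS (log2 1.22 ± 0.19, adjusted p = 0.00017) and 5.16-fold with IFN-β (log2 2.37 ± 0.19, adjusted p = 6.6e-06), and it was 2.22-fold higher with IFN-β than with LPS (log2 1.15 ± 0.18, adjusted p = 0.00041). The ratio of *Tlr9* to *Tlr7* per kilobase was 0.232 to 0.324 in unstimulated DCs, 0.112 to 0.144 with LPS and 0.381 to 0.486 with IFN-β. LPS and IFN-β libraries thus lay on opposite sides of the unstimulated ones. Plasmacytoid DCs are known for high *Tlr7* and *Tlr9*. The summed level of the 5 plasmacytoid DC markers was 4.10 to 4.72 CPM with LPS and 5.29 to 6.93 CPM with IFN-β, against 2.71 to 3.26 CPM without stimulation. Its members did not move together. *Ccr9* went from 0.491 CPM to 2.17 CPM with LPS and 1.20 CPM with IFN-β. *Pacsin1* went from 2.14 CPM to 2.01 and 4.32 CPM, and *Cox6a2* from 0.289 CPM to 0.216 and 0.326 CPM, in the same order. *Siglech* and *Klk1* had no more than 3 counts in any library. The part of plasmacytoid DCs in the *Tlr9* level was not tested.

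*Tlr13*, the receptor of bacterial ribosomal RNA (chrX:106143204-106160493, plus strand), was at 199, 165 and 122 CPM in unstimulated DCs, 185, 138 and 135 CPM with LPS, and 298.8, 242 and 208 CPM with IFN-β. The LPS libraries lay within the range of the unstimulated ones, and the IFN-β libraries were above both groups. With LPS no change passed the threshold (log2 -0.09 ± 0.19, adjusted p = 0.70), although scaling by library size gave a decrease (log2 -0.67, adjusted p = 0.0030). With IFN-β *Tlr13* was 1.54-fold higher (log2 0.63 ± 0.19, adjusted p = 0.020), and this call was lost with scaling by library size (0.32, adjusted p = 0.11), without IFN-β library A (0.47, adjusted p = 0.083) and without unstimulated library C (0.46, adjusted p = 0.058). With the letter as a block this rise passed (log2 0.63, adjusted p = 4.0e-06). *Tlr13* was 1.64-fold higher with IFN-β than with LPS (log2 0.71 ± 0.19, adjusted p = 0.0098). The ratio of *Tlr3* to *Tlr13* per kilobase rose from 0.0510 to 0.0623 in unstimulated libraries to 0.327 to 0.455 with IFN-β and 0.869 to 0.988 with LPS.

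**Figure D2:**
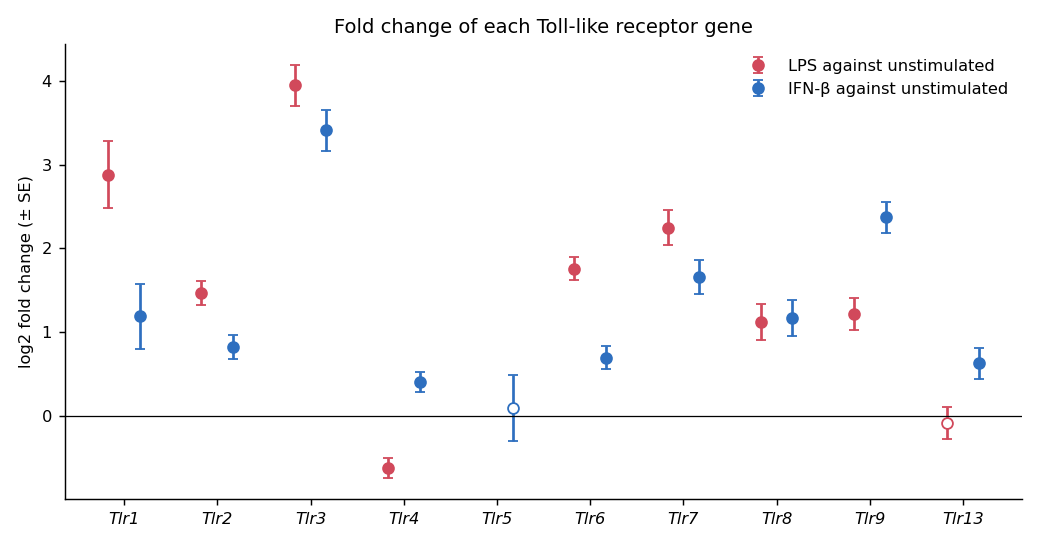
log2 fold change of each receptor gene against unstimulated DCs for LPS and IFN-β, with error bars of 1 SE from the edgeR fit. Filled points passed an adjusted p-value of 0.05 and open points did not; *Tlr3* is highest for both stimuli (3.94 and 3.41), *Tlr4* lies on opposite sides of 0, and *Tlr5* with LPS is left out because it rests on 3 counts.

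In the direct comparison of the stimuli, 4 of the 10 receptors were higher with IFN-β than with LPS (*Tlr4*, *Tlr5*, *Tlr9* and *Tlr13*) and 4 were lower (*Tlr1*, *Tlr2*, *Tlr6* and *Tlr7*), against 25.8% of all tested genes higher, 23.3% lower and 49.1% in either direction. The lipoprotein receptor genes *Tlr1*, *Tlr2* and *Tlr6* were thus all higher with LPS. For *Tlr3* and *Tlr8* the call was not made. *Tlr5*, with 3 counts in LPS-activated DCs, rests on few counts here as well (adjusted p = 0.00098).

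Library A had the highest value of its group for 9 of the 10 receptors in unstimulated DCs, for 8 with LPS and for 10 with IFN-β, and library C had the lowest value for 8, 5 and 6. The macrophage markers summed to the highest value in library A of each group (2185, 2256 and 2591 CPM), as did the neutrophil markers (23.1, 25.6 and 19.7 CPM, against 9.61 to 15.9 CPM in libraries B and C). The B cell markers did so as well, at low levels (0.481, 0.531 and 0.351 CPM). The DC markers were highest in library A without stimulation (6417 CPM) and with LPS (7817 CPM), but not with IFN-β. The conventional DC1 markers were highest in library A without stimulation and with IFN-β, but lowest there with LPS. The plasmacytoid DC markers were not highest in library A of any group. The part of these cells in the receptor levels was not tested. Without the A libraries of all groups, 9 receptors passed the threshold with LPS, 8 with IFN-β and 9 between the stimuli.

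Levels were compared between genes per kilobase of merged exon length. In unstimulated DCs *Tlr2* was highest at 104 CPM per kb ± 7.45 (SD, n = 3), followed by *Tlr13* at 37.6 ± 8.93, *Tlr4* at 25.3 ± 0.306, *Tlr8* at 22.04 ± 4.604 and *Tlr7* at 13.7 ± 3.05. *Tlr1*, *Tlr6* and *Tlr9* followed at 4.76 ± 2.42, 3.997 ± 0.699 and 3.55 ± 0.488, then *Tlr3* at 2.17 ± 0.627 and *Tlr5* at 0.0869 ± 0.0304. The ranges of *Tlr4* and *Tlr8*, of *Tlr1* and *Tlr6*, and of *Tlr6* and *Tlr9* overlapped, and the other neighbours in this order did not. With coding length in place of exon length, *Tlr4* came before *Tlr13* and *Tlr3* before *Tlr9*.

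With LPS the order was *Tlr2* (286 CPM per kb ± 56.9), *Tlr7* (65.0 ± 15.3), *Tlr8* (47.9 ± 13.7), *Tlr13* (35.5 ± 6.43), *Tlr1* (35.0 ± 13.1), *Tlr3* (33.4 ± 7.85), *Tlr4* (16.4 ± 3.09), *Tlr6* (13.5 ± 1.72), *Tlr9* (8.25 ± 1.91) and *Tlr5* (0.00619 ± 0.00608). The ranges of *Tlr7* and *Tlr8* overlapped, although *Tlr7* was above *Tlr8* in each LPS library, and *Tlr7* lay above *Tlr13*, *Tlr1* and *Tlr3* without overlap. From *Tlr8* to *Tlr3* each gene overlapped the next, and *Tlr4* overlapped *Tlr6*. With IFN-β the order was *Tlr2* (183 ± 22.4), *Tlr13* (58.0 ± 10.6), *Tlr8* (49.5 ± 9.53), *Tlr7* (43.1 ± 8.33), *Tlr4* (33.3 ± 2.74), *Tlr3* (23.0 ± 5.09), *Tlr9* (18.3 ± 3.73), *Tlr1* (10.8 ± 3.91), *Tlr6* (6.45 ± 0.707) and *Tlr5* (0.0914 ± 0.0324). *Tlr13*, *Tlr8* and *Tlr7* overlapped in turn, as did *Tlr3* with *Tlr9* and *Tlr9* with *Tlr1*. The order after stimulation also depended on the length used: with coding length *Tlr3* came before *Tlr8* with LPS, and *Tlr4* before *Tlr8* with IFN-β.

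The summed level of the 10 receptors was 217 CPM per kb ± 24.9 in unstimulated DCs, 541 ± 115 after LPS and 426 ± 61.6 after IFN-β. *Tlr2* alone made up 48.1% ± 4.24, 53.0% ± 2.06 and 43.2% ± 2.62 of it. *Tlr4* fell from 11.7% ± 1.23 to 3.10% ± 0.850 with LPS and stood at 7.88% ± 0.581 with IFN-β, while *Tlr3* went from 0.988% ± 0.167 to 6.16% ± 0.375 and 5.36% ± 0.467. The surface receptors (*Tlr1*, *Tlr2*, *Tlr4*, *Tlr5* and *Tlr6*) had 63.8% ± 4.24 of the sum without stimulation, 64.9% ± 1.93 after LPS and 55.1% ± 2.07 after IFN-β. The lowest unstimulated library (60.5%) and the lowest LPS library (63.5%) were above the highest IFN-β library (57.2%), and the unstimulated and LPS groups overlapped. These shares are descriptions, since only 3 libraries per group were compared and the smallest p of a two-sided exact permutation test at this size is 0.1.

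**Figure D3:**
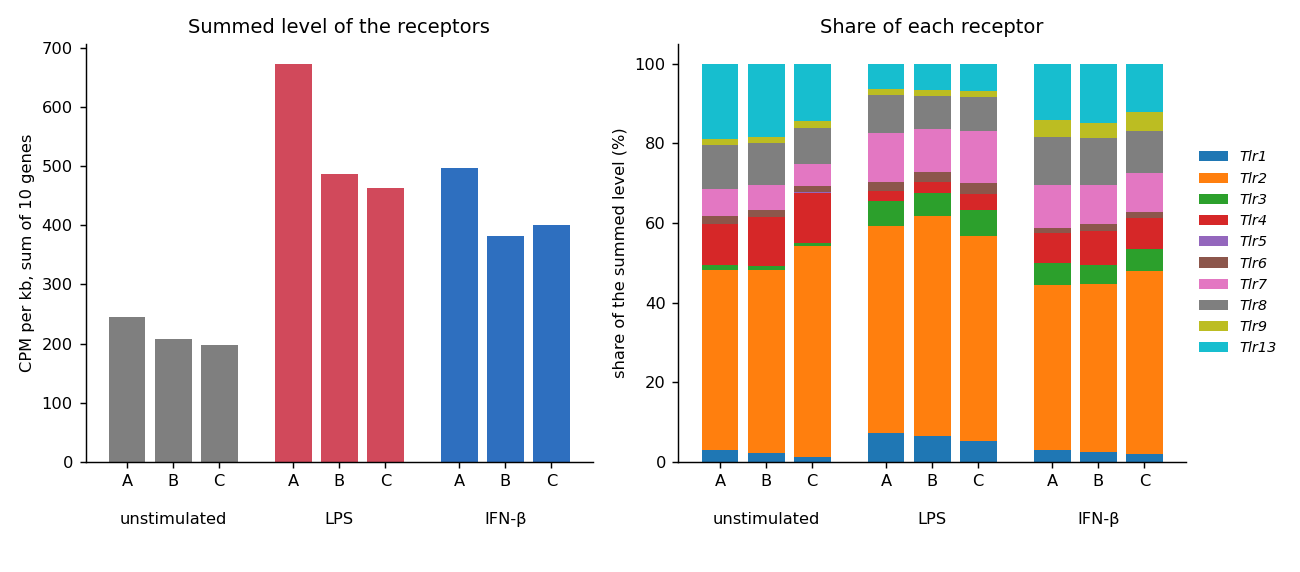
Summed level of the 10 receptors in CPM per kb of exon (left, linear axis from 0) and the share of each gene in that sum in percent (right) in each of the 9 libraries. The sum averaged 217 in unstimulated DCs, 541 after LPS and 426 after IFN-β, and *Tlr2* (orange) made up 43.2% to 53.0% of it on average.

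**Figure D4:**
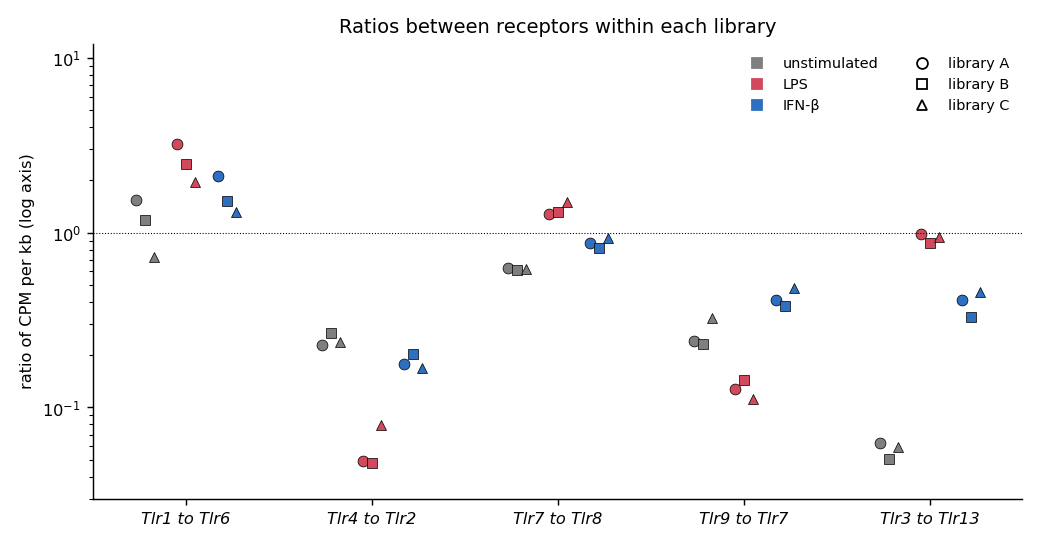
Ratio of the CPM per kb of pairs of receptors within each library, on a log axis, for unstimulated, LPS-activated and IFN-β-treated DCs. Circles, squares and triangles are libraries A, B and C, and the dotted line marks equal levels; the ratio of *Tlr7* to *Tlr8* is 0.613 to 0.631 without stimulation and 1.29 to 1.505 with LPS.

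The other mouse genes of the family, *Tlr11* and *Tlr12*, encode endosomal receptors of the profilin of protozoan parasites. *Tlr11* was at 6.34 to 8.02 CPM in unstimulated DCs, 2.49 to 5.24 CPM with LPS and 12.8 to 15.0 CPM with IFN-β, with no overlap. It decreased with LPS (log2 -0.87 ± 0.22, adjusted p = 0.0041) and rose with IFN-β (log2 0.95 ± 0.20, adjusted p = 0.0029), the same directions as *Tlr4*, and was 3.53-fold higher with IFN-β than with LPS (adjusted p = 4.8e-05). *Tlr12* was at 0.805 CPM ± 0.144 in unstimulated libraries, 0.386 CPM ± 0.218 after LPS and 0.828 CPM ± 0.102 after IFN-β. Its decrease with LPS passed the threshold (log2 -1.03 ± 0.35, adjusted p = 0.023) but not without unstimulated library C (-0.90, adjusted p = 0.068), LPS library A (-0.71, adjusted p = 0.067), LPS library C (-0.98, adjusted p = 0.064) or all A libraries (-0.83, adjusted p = 0.056). The *Tlr12* libraries had 5 to 42 counts.

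The genes that the receptors work with were described by 7 lists with 56 genes, of which 54 were tested. With LPS 31 were higher and 12 lower, and with IFN-β 26 were higher and 6 lower, beside the background shares given above. Their median log2 fold change was 0.50 with LPS and 0.27 with IFN-β. With scaling by library size, which moved the median over all genes by -0.58 (LPS) and -0.31 (IFN-β) on the log2 scale, 19 of 41 called genes were higher with LPS and 15 of 34 with IFN-β, so that the balance of the lists depends on the scaling. Directions below are relative to the TMM-scaled median.

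Among the 6 chaperones and transporters of the receptors, 2 rose and 3 fell with LPS, and 3 rose with IFN-β. Of all tested genes, 32.8% were higher and 35.4% lower with LPS, and 23.6% were higher and 23.3% lower with IFN-β. *Unc93b1*, which carries the nucleic acid receptors to the endosome, rose with LPS (log2 0.58 ± 0.11, adjusted p = 0.00059) and IFN-β (0.62 ± 0.11, adjusted p = 0.00076), although its LPS value was -0.01 with scaling by library size. *Cnpy4* decreased with LPS from 11.3 CPM ± 1.17 to 4.41 CPM ± 0.540 (log2 -1.36 ± 0.12, adjusted p = 1.9e-06), and with IFN-β its value of -0.25 (adjusted p = 0.089) passed only with the letter as a block (adjusted p = 0.022), with upper-quartile factors (-0.32, adjusted p = 0.024) or with scaling by library size (-0.55, adjusted p = 0.00071). *Slc15a4*, an endolysosomal transporter needed for TLR7 and TLR9 signalling, decreased with LPS (log2 -0.46 ± 0.10, adjusted p = 0.0017) and rose with IFN-β (0.47 ± 0.10, adjusted p = 0.0026), though not past the threshold with scaling by library size (0.17, adjusted p = 0.11). Of the 5 endosomal proteases, which cut the nucleic acid receptors, 2 were higher with each stimulus, beside the same all-gene shares. *Ctsl* rose with LPS (log2 0.69 ± 0.17, adjusted p = 0.0032), a call lost with scaling by library size (0.11, adjusted p = 0.47). *Ctsk* rose with IFN-β (0.79 ± 0.15, adjusted p = 0.0015), and its LPS value of 0.44 (adjusted p = 0.023) became -0.14 with scaling by library size. With the letter as a block, *Ctsk* was also higher with IFN-β than with LPS (log2 0.36, adjusted p = 0.00078).

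Among the ligand-binding partners, *Cd14*, which hands LPS to TLR4, rose from 75.8 CPM ± 3.83 to 700 CPM ± 36.0 with LPS (log2 3.21 ± 0.09, adjusted p = 1.8e-09) and was at 62.9 CPM ± 6.52 with IFN-β (log2 -0.27 ± 0.09, adjusted p = 0.025). *Cd14* was thus higher with LPS, where *Tlr4* was lower. The small decrease with IFN-β did not pass the threshold without any of 4 single libraries (unstimulated A or C, IFN-β A or B; log2 -0.26 to -0.21, adjusted p = 0.058 to 0.092) or without the A libraries of all groups (-0.18, adjusted p = 0.17). *Cd180*, a relative of TLR4 that lacks the TIR domain, rose with LPS (log2 1.76 ± 0.22, adjusted p = 3.7e-05) and with IFN-β (2.10 ± 0.22, adjusted p = 3.9e-05), and with the letter as a block it was higher with IFN-β than with LPS (0.35, adjusted p = 0.00096). Of the 7 tested partners 4 were higher and 1 was lower with LPS, and 3 were higher and 2 lower with IFN-β. The all-gene shares were 32.8% higher and 35.4% lower with LPS, and 23.6% and 23.3% with IFN-β.

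The counts in the next 3 lists stand beside all-gene shares of 32.8% higher and 35.4% lower with LPS, and 23.6% and 23.3% with IFN-β. Of the 5 tested adaptors, 4 were higher with LPS and 3 with IFN-β. *Pik3ap1*, an adaptor that links the receptors to PI3K, rose most of the list with both (log2 1.39 ± 0.12 and 1.06 ± 0.12, adjusted p = 2.0e-06 and 5.5e-05). Of the 16 kinases and ubiquitin ligases, 10 were higher and 4 lower with LPS, and 8 were higher and 1 lower with IFN-β. *Peli1*, a ubiquitin ligase of the TRIF branch, rose from 25.3 CPM ± 1.86 to 259 CPM ± 48.3 with LPS and 84.8 CPM ± 12.6 with IFN-β (log2 3.36 ± 0.15 and 1.74 ± 0.14, adjusted p = 1.9e-08 and 6.8e-06). Of the 6 transcription factors, 5 were higher with LPS, and 5 were higher and 1 was lower with IFN-β. *Irf7*, the factor of interferon induction downstream of TLR7 and TLR9, was at 141 CPM ± 99.1 without stimulation and rose with LPS and IFN-β (log2 3.34 ± 0.53 and 3.12 ± 0.52, adjusted p = 0.00021 and 0.00072).

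Of the 9 inhibitors, 4 were higher and 4 lower with LPS and 2 were called in each direction with IFN-β, beside all-gene shares of 32.8% higher and 35.4% lower with LPS and 23.6% and 23.3% with IFN-β. *Il1rl1*, the IL-33 receptor, whose protein restrains TLR signalling, decreased from 16.9 CPM ± 3.81 to 0.733 CPM ± 0.328 with LPS and 5.99 CPM ± 1.43 with IFN-β (log2 -4.50 ± 0.30 and -1.50 ± 0.23, adjusted p = 3.0e-07 and 0.00044). Between the stimuli, 12 of the 54 pathway genes were higher and 21 lower with IFN-β than with LPS, whereas scaling by library size gave 24 of 40 higher. Of all tested genes, 25.8% were higher and 23.3% lower in this comparison.

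**Figure D5:**
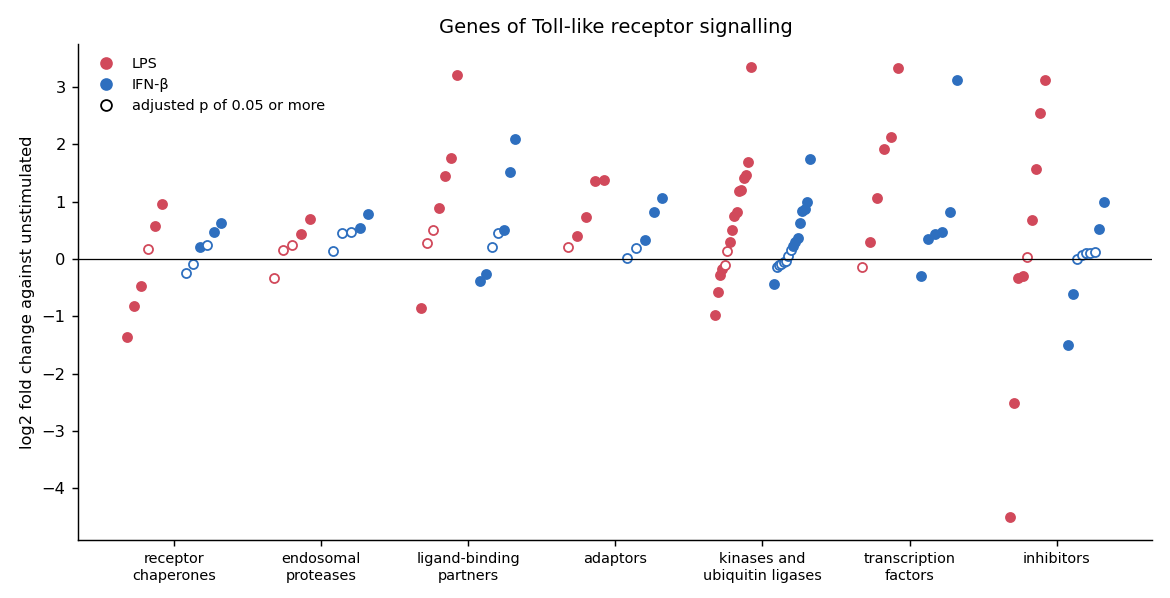
log2 fold change against unstimulated DCs of the 54 tested genes of Toll-like receptor signalling in 7 lists, for LPS and IFN-β, each point a gene, in order of value within its list. Filled points passed an adjusted p-value of 0.05; the highest with LPS is *Peli1* (3.36) and the lowest *Il1rl1* (-4.50).

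The genes whose level followed each receptor most closely over the 9 libraries were found by Pearson's r of log2(CPM + 0.5), as a description, since all pairs share libraries and the conditions drive most of the variation. For *Tlr3* these were *Gm47242* (r = 0.999) and *Tnfsf10*, which encodes the death ligand TRAIL (r = 0.999). For *Tlr2* they were *Tnfrsf1a*, a TNF receptor gene (0.998), and *Golga3* (0.998), for *Tlr1* *Mapk6* (0.997) and *Fyb* (0.995), and for *Tlr6* *Arid2* (0.996) and *Htra4* (0.995). *Tlr7* was followed by *Atp1b3* and *Spty2d1* (both 0.998), *Tlr8* by *H2aw* and *Cdh5* (both 0.990), *Tlr9* by *Clcn1* (0.992) and *Dpy19l1* (0.989), and *Tlr13* by *Gm20056* (0.981) and *Tm4sf19* (0.980). For *Tlr4* they were *Gpr65* (0.990) and *Itch* (0.986), and for *Tlr5* *Rab3gap2* (0.988) and *Ypel2* (0.982). Among the receptors, *Tlr3* and *Tlr7* were closest (0.99), followed by *Tlr1* and *Tlr6* (0.98), the pair with shared sequence. *Tlr4* was opposed to *Tlr6* (-0.63) and *Tlr1* (-0.58) and followed *Tlr5* (0.83) and *Tlr13* (0.70).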

How the data were processed

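Bulk RNA-seq libraries of mouse bone marrow-derived DCs were analysed, 3 per condition. The sources used here describe ribosomal RNA depletion, paired-end reads of 100 bases, trimming with Trim Galore 0.6.0 and alignment to mm10 (GRCm38) with STAR, version 2.7.8a in the submitters' processing notes (the study's methods name another release), which also counted reads per GENCODE gene; the strand setting of the counting is not given in the sources used here. The values used are the raw counts per gene as deposited by the authors, 33425803 to 43735199 per library.

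Groups were taken from the labels. Genes were filtered with filterByExpr, leaving 16260, and tested with edgeR 4.0.16 (quasi-likelihood F-test, TMM factors) in 1 model of all 9 libraries under R 4.3.3, with Benjamini-Hochberg adjustment over all tested genes and a threshold of 0.05. SEs were derived from the fold change and the F statistic. The script was tested on simulated data. Same-letter libraries deviated together from their group means (r of 0.134 to 0.546 in 9 pairs, against -0.480 to 0.0622 in 18 other pairs). A fit with the letter as a block was therefore run beside the unblocked fit. Calls, fold changes and SEs are from the unblocked fit, which ignores this pairing, unless the block is named. No 2 libraries of a group agreed within sampling noise. Intervals cover counting error only.

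Alternatives were library-size and upper-quartile scaling, DESeq2 1.42.0, omission of the low-count filter, a minimum of 10 counts per library, only the groups compared, the block, each library left out, a minimum fold change, other gene lengths and, chosen after seeing the data, all A libraries left out. The members and gene lists were chosen with earlier results of these data known. Named were the members, *Tlr11*, *Tlr12*, the first-listed defining markers, for each pathway list the gene with the largest change past the threshold under each stimulus and any gene called in opposite directions, and for each receptor the 2 genes most like it. Other markers, the stimulation checks and *Gm45542* were named after their values were seen. Gene positions are from GENCODE M21 and promoters from RefSeq (GRCm38.p6).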

Additional observations from a re-analysis of the deposited data

Results flagged for a closer look

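For 4 of the named genes the responses to the 2 stimuli went in opposite directions, each response passed edgeR's test and so did the difference between them, with the same unstimulated libraries in both. *Slc15a4* was named only because it was called in opposite directions, a rule that *Cd14* also met. The count of 4 is therefore not a result about the named genes. Of all tested genes, 1.76% (286) were called in opposite directions. The response to IFN-β minus the response to LPS was 1.03 on the log2 scale for *Tlr4*, 1.82 for *Tlr11* and 0.94 for *Slc15a4*, each lower with LPS and higher with IFN-β. It was -3.48 for *Cd14*, which was higher with LPS and lower with IFN-β. With scaling by library size, the response to IFN-β missed the threshold for *Tlr4* (0.09, adjusted p = 0.51) and *Slc15a4* (0.17, adjusted p = 0.11). That of *Cd14* missed it without the A libraries of all groups (-0.18, adjusted p = 0.17).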

How the results depend on the processing

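No receptor changed direction past the threshold under the alternatives tried. Of 169 alternative values of the receptors per comparison, 168 kept their call for LPS against unstimulated, 159 for IFN-β against unstimulated and 157 for IFN-β against LPS, and the exceptions stand beside the genes. The call of *Tlr3* between the stimuli, absent in the main edgeR fit, was made under 8 alternatives (log2 -0.73 to -0.51). It was also absent with scaling by library size (-0.26, adjusted p = 0.26) and with upper-quartile factors (-0.52, adjusted p = 0.052). A minimum absolute log2 fold change of 1 left 5 receptors for IFN-β against unstimulated and 5 for IFN-β against LPS, and 21, 6 and 12 pathway genes in the 3 comparisons. Scaling by library size turned the LPS values of *Unc93b1* to -0.0051 and *Ctsk* to -0.14. With the letter as a replicate block, 9 receptors were called in each comparison, and *Tlr3* between the stimuli (-0.53) was the only receptor call that changed. Of the 54 pathway genes, the block called 49 with LPS (36 higher), 40 with IFN-β (33 higher) and 41 between the stimuli (17 higher). The unblocked fit called 43, 32 and 33. The share over all tested genes is not given for the block. *Tlr5* and *Tlr12*, with 0 to 42 counts in a library, are limited by depth, and *Tlr5* was not tested with at least 10 counts in every library.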
